A study of Mus musculus with 5 samples.

Results

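The regions described here are isolated accessible sites of mouse 3T9 fibroblasts. Each is an autosomal site that was called in all 3 distinct peak lists of the series and lies more than 150 kb, edge to edge, from the nearest other called site on both sides. Overlapping peaks of the 3 lists merged into 52181 sites, of which 31287 were autosomal and present in every list, and 279 of these (0.892%) met the distance rule. The remaining 31008 shared autosomal sites serve as the comparison. The members were chosen by presence in every list and by distance, so both are given below as description. All positions are mm9, as chromosome, start and end. Score, width and chromosome took no direct part in the rule, although a site had to pass the caller's threshold in every list.

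DNase I cuts DNA where nucleosomes are displaced, and the sites it marks are mostly promoters, enhancers and insulator elements bound by factors such as CTCF. Accessible sites crowd in gene-rich chromatin, while long gene-poor stretches are largely packed in inactive chromatin and hold few of them. A site that stands alone in such a stretch can be a distal enhancer, an insulator element, the promoter of a solitary gene, or a repeat that gathers misplaced reads. Peak lists alone do not separate these kinds.

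All libraries came from 3T9 fibroblasts, embryonic fibroblasts immortalised by serial passage, of mixed strain and embryonic day 13.5, homozygous for a floxed c-myc allele (c-mycflox/flox) and infected in culture with MycER. MycER is a Myc fusion that 4-hydroxytamoxifen (4-OHT) activates. The vehicle group (0 h, EtOH) and the 4-OHT group (400 nM, 4 h by title) had 2 libraries each, and the remaining sample, an input of sonicated genomic DNA, has no peak list used here. The promoter that drives MycER, the state of the floxed alleles and whether replicates were separate cultures are not given in the sources used here.

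The 4 deposited lists were 3 distinct ones. All 44956 peaks of 4-OHT replicate 1 recurred with the same positions and scores in EtOH replicate 2, so this list carries both labels and is called the double-labelled list. EtOH replicate 1 (35149 peaks) is called the vehicle list and 4-OHT replicate 2 (47621 peaks) the treated list. Each treatment therefore has 1 list of undisputed label, and no p-value is given for any difference between lists. Read depth is unknown, and a site with no peak in a list was not detected there at that depth. Defining fibroblast markers could not be checked, because the lists name no genes and no mm9 annotation was used here. Scores are the authors' own values from the peak caller, cut off near 80 and piling up at 3100. Some shared sites score above this ceiling, up to 3233 in each list, and counts at the ceiling include them. The ranks used below place them above sites at 3100, and whether they are stronger was not tested.

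Isolation was far from the usual spacing. The median distance from a member to its nearer neighbour was 246.8 kb (quartiles 184.0 and 386.9 kb), against 5.38 kb at the other shared sites. The farther neighbour lay at a median of 590.1 kb. Within 1 Mb on each side of its centre a member had a median of 15 other sites, against 74 for the other shared sites. At 12 members this count was 0, and the highest was 132, at a member in a gap beside crowded chromatin. Of the members, 113 were over 300 kb from both neighbours and 12 were over 1 Mb from both.

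The loneliest member lay at chr1:113760372-113761960. Its neighbours were 4273 kb and 6445 kb away, and its score was 3100, the ceiling, in all 3 lists. The next, at chr3:45179448-45180609, had its nearer neighbour at 3632 kb. Its scores were far lower, at 224 in the vehicle list, 259 in the double-labelled list and 383 in the treated list. The loneliest pair of members thus differed widely in score.

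The other 8 of the 10 farthest members were as uneven. chr16:70313722-70315303 (2348 kb to the nearer neighbour) scored 2160 in the vehicle list, 3100 in the double-labelled list and 2716 in the treated list. chr10:50311739-50313419 (1352 kb) scored 2773, 3100 and 2798 in the same order of lists. chr3:16082522-16084002 (1440 kb) scored 3147, 3100 and 3100. These 3 were strong in every list. chr10:102905553-102906439 (2066 kb) scored 98.1 in the vehicle list, 110 in the double-labelled list and 142 in the treated list. chr6:68618368-68618975 (1186 kb) scored 105, 127 and 86.0. chr15:14359470-14360432 (1061 kb) scored 91.4, 170 and 254. These 3 were close to the threshold of the caller in at least 1 list. The 2 remaining sites, at chr7:94394636-94395747 and at chr4:76094982-76096558, lay between, with vehicle scores of 215 and 238.

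Distance did not order the members among themselves. Spearman's rho between the distance to the nearer neighbour and the score over the 279 members was 0.024 in the vehicle list, 0.028 in the double-labelled list and 0.012 in the treated list. With width it was −0.005, −0.034 and −0.040 in the same order. These are descriptions over sites of shared libraries.

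The distance threshold fell in a continuous range. Just inside it were a pair of adjacent members, chr13:18808868-18809659 and chr13:18959699-18960555, which are 150.039 kb apart, and a member at chr5:96802362-96804492 (150.661 kb). Their vehicle scores were 217, 169 and 485. Just outside it were sites at chr17:4627213-4628228 (149.752 kb), at chr12:119231797-119232524 (148.806 kb) and on chromosome 18 (148.573 kb). Their vehicle scores were 495, 86.1 and 816.

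Members had lower median scores than other shared sites in every list. The median score of members was 298 in the vehicle list (quartiles 145 and 1305), 490 in the double-labelled list (188 and 2417) and 465 in the treated list (234 and 1901). At the other shared sites the medians were 390, 760 and 678. The 166 members at 150 to 300 kb had medians of 244, 435 and 423. The 113 members beyond 300 kb had 413, 656 and 623, which in the vehicle list is above the median of the others. Set among the scores of the other shared sites, the median member stood at percentile 43.2 in the vehicle list, 39.2 in the double-labelled list and 39.5 in the treated list, a mean of 40.6 ± 2.23 (SD, n = 3 lists) where 50 would be no difference. The lists hold the same sites, so the SD covers the difference between lists and not between sites.

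The difference was clearest at the weak end of the range. Scores under 200 were held by 104 of 279 members in the vehicle list (37.3%, Wilson 95% interval 31.8% to 43.1%), 77 in the double-labelled list (27.6%, 22.7% to 33.1%) and 61 in the treated list (21.9%, 17.4% to 27.1%). The shares at other shared sites were 31.2%, 13.3% and 13.1%, each below the interval of the members. In all 3 lists at once, 45 members scored under 200, or 16.1% (12.3% to 20.9%), against 7.94% of the others. Scores of at least 1000 in all 3 lists were held by 82 members, or 29.4% (24.4% to 35.0%), against 29.3% of the others. List by list, scores of 1000 or more were held by 30.1% of the members in the vehicle list (25.02% to 35.7%), 38.7% in the double-labelled list (33.2% to 44.5%) and 34.1% in the treated list (28.7% to 39.8%). The others had 29.5%, 44.0% and 40.7%, so the share fell below the others beyond the interval in the treated list. These intervals account for counting error alone and treat sites as independent, which neighbours are not.

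Middle scores were fewer. Between 500 and 1000 lay 10.0% of the members in the vehicle list (7.04% to 14.1%), 10.4% in the double-labelled list (7.34% to 14.5%) and 15.1% in the treated list (11.3% to 19.7%). The shares at other shared sites were 14.7%, 16.3% and 17.7%, the last of which falls inside the members' interval.

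**Figure D1:**
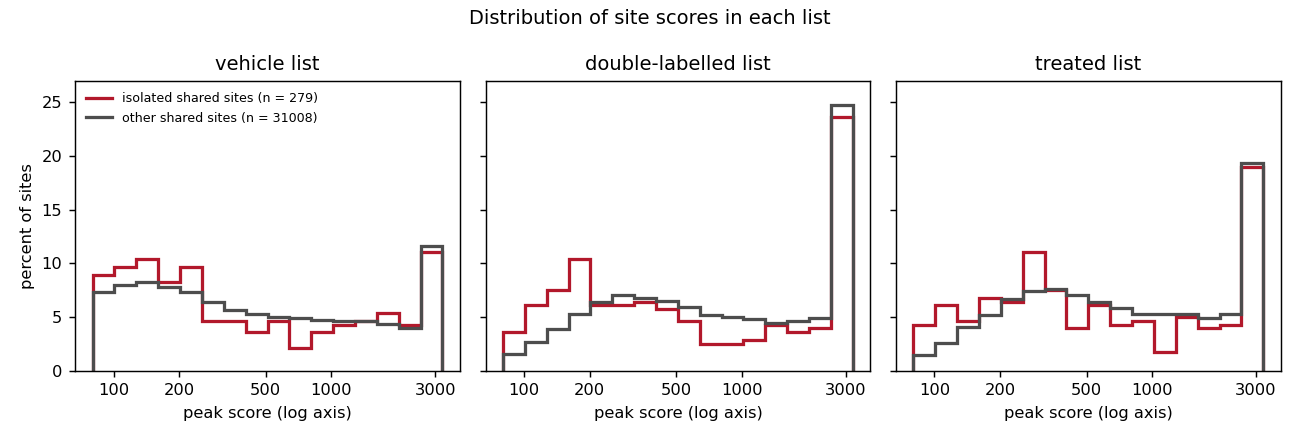
Distribution of peak scores (log axis) in each list, as percent of the 279 isolated shared sites (red) and of the 31008 other shared autosomal sites (grey), in bins of equal log width. In the bins under about 200 the red line lies above the grey. From about 200 to 1000 it mostly lies under it. In the last bin, which holds the ceiling at 3100, the lines are close.

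The ceiling of 3100 was reached by 18 members in the vehicle list (6.45%, 4.12% to 9.97%), 55 in the double-labelled list (19.7%, 15.5% to 24.8%) and 38 in the treated list (13.6%, 10.1% to 18.1%). At the other shared sites the shares were 8.63%, 20.6% and 15.4%, all inside those intervals. The members at the ceiling in all 3 lists numbered 18, or 6.45%, against 8.59% of the others. All of them tie at a lowest score of 3100, so the first 10 along the genome are named.

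On chromosome 1 they lay at chr1:7078075-7079839 and chr1:7386752-7389042, neighbours 306.9 kb apart, and at the loneliest site described above. Chromosome 3 held the sites chr3:5575349-5576948, chr3:16082522-16084002 and chr3:82161319-82162771. The others were at chr4:71859631-71863317, chr5:46246892-46249668, and chr6:43615297-43616875 and chr6:66484541-66486178. Of these 10 sites, the one on chromosome 5 was split into 2 peaks in the vehicle list, and the rest were single peaks in every list.

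The weakest members barely passed the caller in any list. chr7:82280016-82280664 scored 94.8, 95.7 and 98.1 in the vehicle, double-labelled and treated lists. chr1:102676145-102676903 scored 80.4, 99.3 and 82.8. chr9:103661174-103661941 scored 89.4, 102 and 113. These sites were low in all lists, and so were the next, at chr5:105362917-105363774 (119, 102 and 86.3) and at chr14:62669445-62670156 (93.3, 81.0 and 121). The called width of these 5 sites lay between 556 and 793 bp in every list.

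Members were narrower than other shared sites. The called width, summed over the peaks of a site, had a median of 1057 bp in the vehicle list (quartiles 821 and 1466 bp), 1108 bp in the double-labelled list (812 and 1536 bp) and 1076 bp in the treated list (826 and 1518 bp). The medians of the other shared sites were 1280, 1454 and 1392 bp. The ratio of the medians was 0.826, 0.762 and 0.773, a mean of 0.787 ± 0.034 (SD, n = 3 lists).

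Width rises with score, so the comparison was repeated within score classes of the same list. The median width of members was below that of the others in 12 of 12 combinations of class and list, with ratios from 0.778 to 0.906. In the vehicle list members scoring 80 to 200 had a median width of 793 bp (n = 104) against 922 bp, and members scoring 1000 or more had 1531 bp (n = 84) against 1870 bp. In the treated list the same classes gave 712 bp (n = 61) against 915 bp and 1678 bp (n = 95) against 1926 bp. Within a class the scores were close but not equal, and members had the lower median score in 9 of the 12 combinations. In the treated list at 80 to 200, where the width ratio was lowest, the median score was 131 for members and 148 for the others. At 1000 or more in the same list it was 2796 and 2469. The part of these remaining score differences in the width ratios was not tested. The classes and lists share sites and are not independent comparisons.

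**Figure D2:**
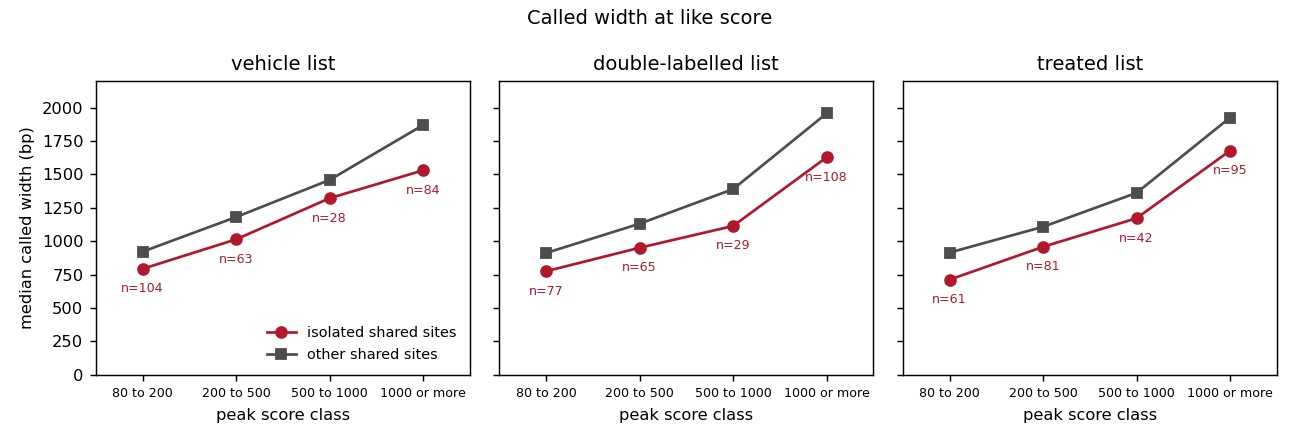
Median called width in bp (vertical axis, from 0) by score class for the 279 isolated shared sites (red, n per class printed) and the other shared autosomal sites (grey) in each of the 3 lists. Both lines rise with score, and the red points lie below the grey in all 12 classes, at ratios from 0.778 to 0.906.

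Most members were simple intervals. In each list 1 single peak made up 270 of the 279 members (96.8%, 94.0% to 98.3%) and 94.0% of the other shared sites, which lies just inside that interval. At these single-peak sites the position of the interval varied between lists about as much as elsewhere. The overlap of peaks in the vehicle and treated lists over their union had a median of 0.868 at members and 0.875 at the others, and their centres were a median of 49.0 bp apart at members and 58.0 bp at the others. Between the vehicle and double-labelled lists the overlap was 0.876 and 0.866, with centres 47.0 and 59.5 bp apart.

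A few members were wide. The widest lay at chr17:39979513-39985923, a single peak in each list. The vehicle list called 6388 bp, the double-labelled list 6411 bp and the treated list 6301 bp, with scores of 3100, 3226 and 3162. chr16:52449920-52454757 had widths of 4673, 4838 and 4739 bp and scores of 3192, 3100 and 3100. chr7:6679627-6683781 had widths of 4097, 4155 and 3989 bp. These 3 were at or above the ceiling in every list. Whether the chromosome 17 interval, or any other member, lies in a repeat that gathers misplaced reads was not tested, since no repeat or mappability annotation was used here, so its width and scores may not stand for open chromatin. The next in width were the site on chromosome 4 named above (3527, 3629 and 3650 bp) and chr14:100682364-100686048 (3418, 3493 and 3629 bp), which scored 1215, 2920 and 1961.

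Over the whole range of spacing, width fell with distance up to 300 kb, and score showed no such steady fall. At shared sites with 1 peak in each list, the median width in the vehicle list was 1269 bp where the nearest site was under 1 kb away, 1241 bp at 10 to 50 kb, 1168 bp at 50 to 150 kb, 1024 bp at 150 to 300 kb and 1064 bp beyond 300 kb. In the treated list these widths were 1407, 1320, 1232, 1080 and 1006 bp. The median score in the vehicle list was 362 under 1 kb, 438 at 10 to 50 kb and 440 at 50 to 150 kb. It was 244 over the 166 members at 150 to 300 kb and 413 over the 113 members beyond 300 kb. In the treated list the last 2 classes had medians of 423 and 623, and in the double-labelled list 435 and 656. The median score was thus lower in the nearer of the 2 classes in each list. The share of sites scoring under 200 was higher in the nearer class in the vehicle list only. At 150 to 300 kb and beyond 300 kb this share was 39.2% and 34.5% in the vehicle list, 25.9% and 30.1% in the double-labelled list, and 19.9% and 24.8% in the treated list. Both classes had lower median widths than the classes nearer than 150 kb, in every list.

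**Figure D3:**
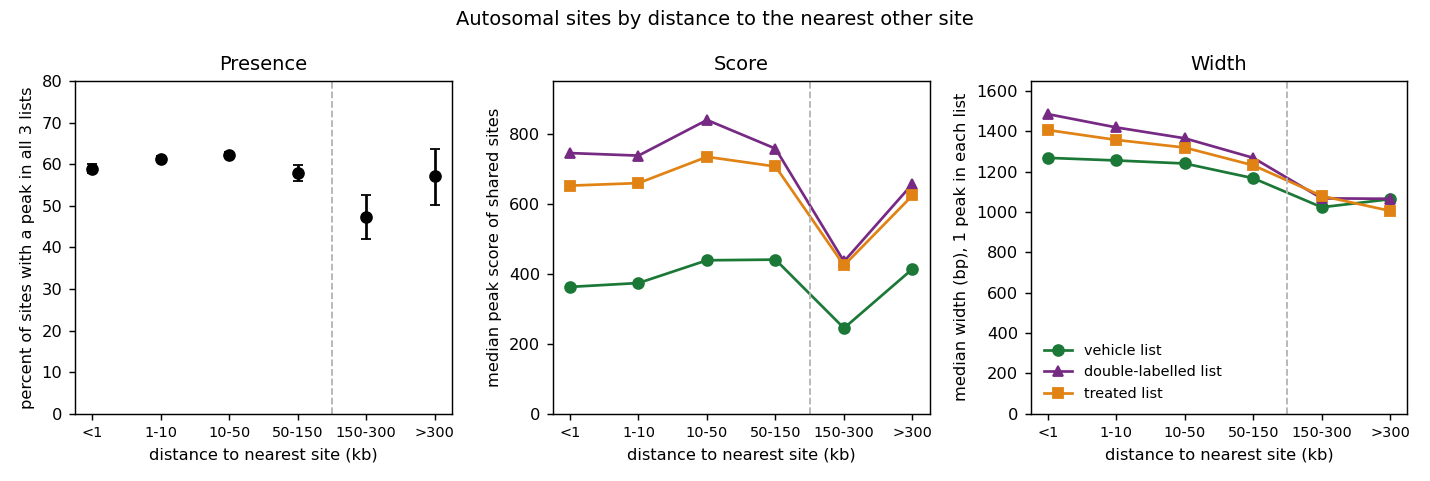
Autosomal sites by distance to the nearest other site in kb, with the 150 kb threshold as a dashed line. Left, percent of all sites with a peak in all 3 lists, with Wilson 95% intervals. Centre, median score of shared sites in each list, lowest at 150 to 300 kb. Right, median width in bp of shared sites with 1 peak in each list, which drops from 1269 to 1064 bp in the vehicle list between the first and last class.

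Many sites that met the distance rule were missing from at least 1 list. Of 549 autosomal sites of any class that were isolated, 279 (50.8%, 46.7% to 55.0%) had a peak in all 3 lists, against 61.0% of the other 50800. By distance, the share was 47.3% of 351 sites at 150 to 300 kb (42.1% to 52.5%). Beyond 300 kb it was 57.1% of 198 (50.1% to 63.8%), an interval that holds the 61.0%. Sites at 50 to 150 kb, which are not isolated, had 58.0%. Here presence is part of the rule, and the shares are a description. The missing list was unevenly spread. The double-labelled list held 73.0% of the isolated sites (69.2% to 76.6%) and 85.0% of the others. The vehicle list held 61.0% (56.9% to 65.0%) and 65.0%, and the treated list 86.9% (83.8% to 89.5%) and 89.0%.

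Isolated sites of the vehicle list alone numbered 25, or 4.55% of the isolated (3.10% to 6.64%), against 1.29% of the others. Those in the vehicle and treated lists but not in the double-labelled list numbered 23, or 4.19% (2.81% to 6.21%), against 1.48%. The treated list alone held 100, or 18.2% (15.2% to 21.7%), against 12.3%. The class present in the treated and double-labelled lists but not in the vehicle list differed little, at 13.7% (11.04% to 16.8%) against 14.2%. The unshared sites were weak whether isolated or not, with median scores of 96.2 (isolated) and 97.8 (others) in the vehicle list and 116 and 120 in the treated list.

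Every autosome had members, from 5 on chromosome 18 to 29 on chromosome 3. On chromosome 3 they made up 1.90% of the 1527 shared sites (1.33% to 2.71%), and on chromosome 11 0.347% of 2596 (0.183% to 0.658%). The median over autosomes was 0.922%. Chromosomes 1 and 3 together held 54 members, 19.4% of all, and 10.7% of the shared autosomal sites. The next highest shares after chromosome 3 were 1.37% on chromosome 1 (25 members), 1.36% on chromosome 12 (15) and 1.24% on chromosome 16 (12), whose intervals overlap that of chromosome 3.

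These shares partly followed how crowded a chromosome was. Chromosome 11 had 35.4 merged sites per Mb of the span between its first and last site, the highest density, and chromosomes 12, 1, 14 and 3 had 15.0, 15.1, 15.5 and 15.7, the lowest. Spearman's rho between density and the share of shared sites that were members was −0.568 over 19 autosomes, a description in which the number of shared sites enters both measures. Per 100 Mb of span the order was different, with 18.9 members on chromosome 19 (11 members of 1075 shared sites, in 58.1 Mb) and 18.5 on chromosome 3, and the rho was −0.058. Chromosome 19 was dense, at 31.7 sites per Mb, and chromosome 18, at 15.8, had 5.71 members per 100 Mb.

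**Figure D4:**
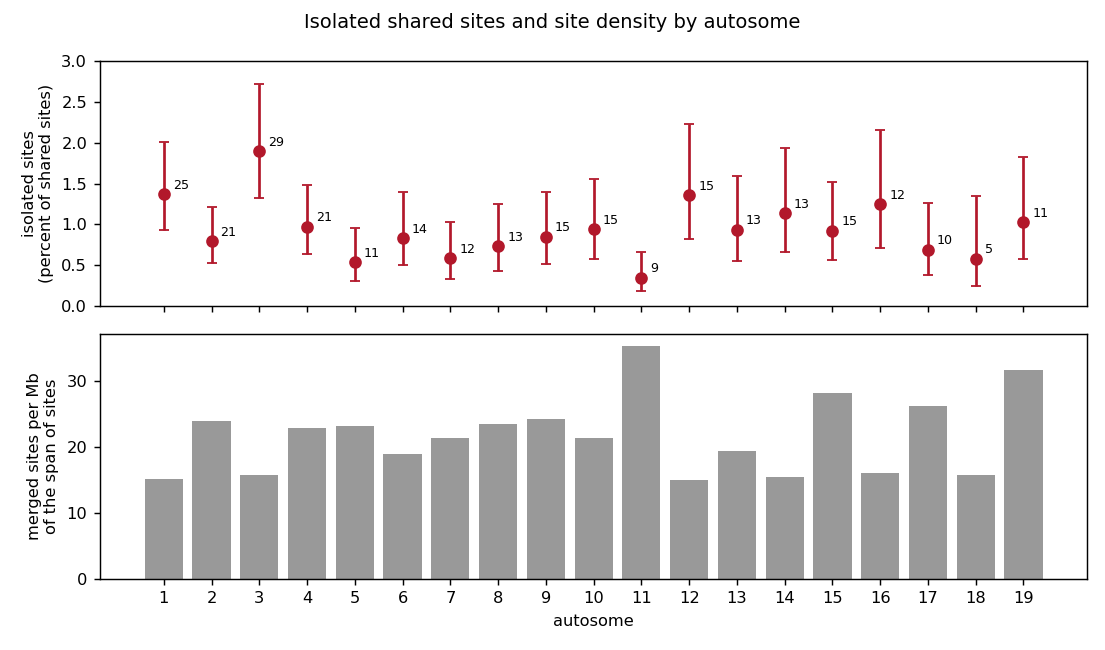
Top, isolated shared sites as percent of the shared sites of each autosome, with Wilson 95% intervals and the number of members printed. Bottom, merged sites per Mb of the span between the first and last site. Chromosome 3 has the highest share (1.90%) and chromosome 11 the lowest (0.347%) with the highest density (35.4 per Mb).

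Scores of members also differed by chromosome, over few sites each. The 12 members of chromosome 16 had median scores of 1657, 2743 and 2490 in the vehicle, double-labelled and treated lists, the highest among autosomes. The 13 members of chromosome 14 had 167, 227 and 228, and the 9 of chromosome 11 had 168, 283 and 230, the lowest 2 in the vehicle list.

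For 90 of the 279 members the adjacent site was also a member, in 33 pairs and 8 runs of 3, and the other 189 had no adjacent member. The distance rule itself favours such pairs, because the neighbour of a member already has a long gap on the facing side. The first run of 3 in genome order lay at chr1:41709277-41710054, chr1:42648462-42649290 and chr1:42907384-42909183. Its gaps were 938.4 and 258.1 kb, and its vehicle scores 234, 181 and 1812. Neighbouring members could thus differ widely in score. Among windows of 10 Mb, 3 held 5 members each, on chromosome 9 from 80 to 90 Mb, on chromosome 3 from 60 to 70 Mb and on chromosome 15 from 90 to 100 Mb. The last held 202 shared sites and the first 71. From 70 to 80 Mb of chromosome 4, 3 of only 8 shared sites were members. Of the 545 sites that flank members, members included, 327 (60.0%) were present in all 3 lists. The share was 61.0% of the 50800 autosomal sites that were not isolated. The 90 members with an adjacent member are among the 545 and are in all 3 lists by the rule. Part of the 60.0% was therefore fixed in advance, and leaving those 90 out would lower it. Its closeness to 61.0% thus does not show that flanking sites were shared as often as the others.

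The lists were compared at members by rank, because the treated and double-labelled lists score most sites higher than the vehicle list. Each shared autosomal site was given its percentile rank among all 31287 in each list. Members had a median rank of 43.3 in the vehicle list, 39.6 in the treated list and 39.3 in the double-labelled list. The median of the rank in the treated list minus that in the vehicle list was −3.32 points (quartiles −8.38 and 2.27), against −0.519 (−5.06 and 5.51) at the other shared sites. At 178 of 279 members (63.8%) the rank was lower in the treated list than in the vehicle list, where the background over all shared autosomal sites was 52.2%. They were over 10 points lower at 56 members (20.1%, background 13.0%) and over 10 points higher at 31 (11.1%, background 14.3%).

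The double-labelled list, set against the same vehicle list, gave a median difference of −3.56 points at members and −0.384 at the others. Ranks were lower there at 180 members (64.5%, background 51.8%), over 10 points lower at 70 (25.1%, background 13.3%) and over 10 points higher at 21 (7.53%, background 14.8%). Both comparisons use the vehicle list, so they are not separate evidence, and the double-labelled list also carries the vehicle label. Between the treated list and the double-labelled list the median difference was 2.60 points at members and 1.52 at the others. The vehicle library carries no replicate letter and the 4-OHT library carries B, so treatment and replicate letter cannot be told apart, and each treatment has 1 list.

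Most of the difference in rank sat at weak and middle scores. At vehicle scores of 80 to 200 the median rank in the treated list minus that in the vehicle list was −1.45 at 104 members and 2.71 at the others, and at 200 to 500 it was −7.33 at 63 members and −1.55 at the others. At 1000 or more it was −2.46 at 84 members and −2.58 at the others. Sites at exactly 3100 in both lists differ by −3.54 points because more sites tie at the ceiling in the treated list. The score itself was 1.35 times the vehicle score at the median member and 1.53 times at the median other site.

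**Figure D5:**
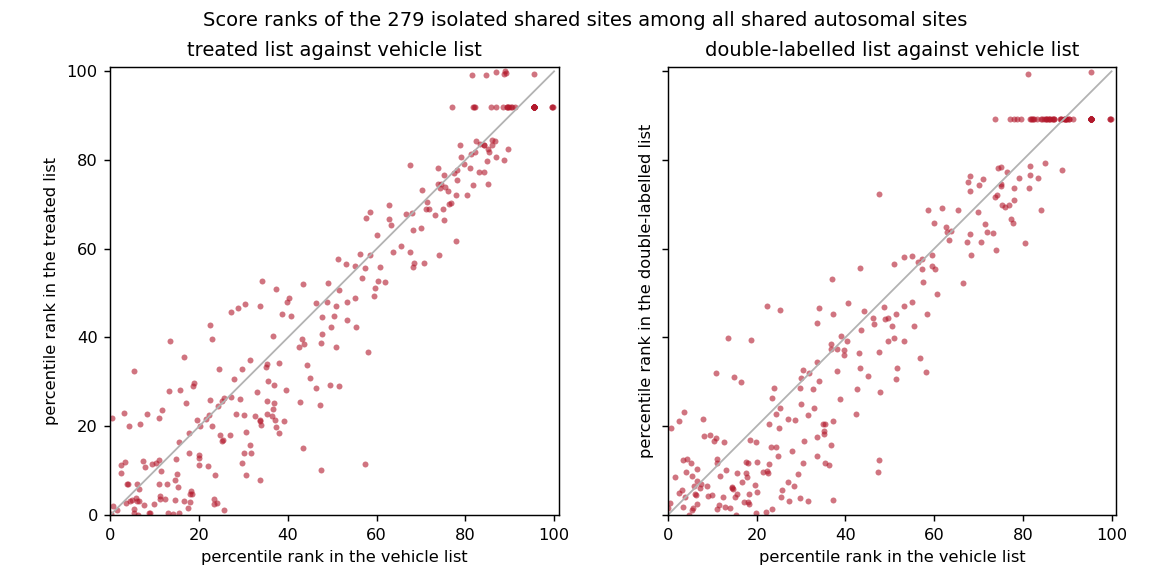
Percentile rank of each of the 279 isolated shared sites among all shared autosomal sites in the vehicle list (horizontal) against its rank in the treated list (left) and in the double-labelled list (right), with the line of equal ranks. More points lie below the line than above it (178 and 180 of 279), and the horizontal rows near the top are sites tied at the ceiling.

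Single members moved further. The largest rise in rank was at chr12:75925556-75926644, with scores of 94.9 in the vehicle list, 164 in the double-labelled list and 371 in the treated list (ranks 5.38, 8.76 and 32.4). At chr13:119966397-119967630 the scores were 120, 502 and 460. chr16:12742842-12743702 scored 81.0, 113 and 270. On chromosomes 12 and 16 the double-labelled list stood nearer to the vehicle list, and on chromosome 13 nearer to the treated list. The next were chr7:16334233-16335520 (154, 665 and 521) and chr2:141626298-141627293 (88.4, 138 and 279).

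The largest drop was at chr14:106562768-106563828, with scores of 534 in the vehicle list, 978 in the double-labelled list and 186 in the treated list (ranks 57.3, 55.5 and 11.4). chr15:93855720-93857320 scored 350, 192 and 177, and the vehicle list called 1601 bp there, the double-labelled list 779 bp and the treated list 856 bp. chr9:46543328-46544373 scored 298, 394 and 215. On chromosomes 14 and 9 the rank in the treated list was the farthest from the others, and on chromosome 15 that in the vehicle list. The last of the 5 were chr8:15519440-15520113 (214, 199 and 158) and chr13:18959699-18960555 (169, 125 and 95.4).

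The share of sites called wider in the other lists than in the vehicle list was lower at members than in the background. At 151 of 279 members (54.1%) the treated list called a larger width than the vehicle list, with a background of 68.9% over all shared autosomal sites. It was larger in the double-labelled list than in the vehicle list at 163 (58.4%, background 75.4%). The median ratio of widths, treated over vehicle list, was 1.01 at members and 1.06 at the others. How far the smaller gain in score at members bears on this was not tested.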

How the data were processed

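The authors deposited 1 list of peaks per DNase-seq library, each with a position and a score and no header. The submitters' processing notes name the aligner BWA 0.6.2, the peak caller MACS 1.4.1, SAMtools and mm9 as the build, and give no settings. The deposited score was read as minus 10 times the log10 of the caller's p-value, going by what MACS writes and by the range of values. How the input was used and whether peaks were called per library are not given in the sources used here, and depth is unknown.

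Peaks of the 3 distinct lists were merged where they overlapped by at least 1 bp, with Python 3.11.15, numpy 2.4.6, pandas 2.3.3 and scipy 1.17.1 (figures, matplotlib 3.10.9). The 52181 sites equalled those of bedtools 2.31.1. On 20000 simulated sites the script recovered 905 of 905 isolated shared sites with 0 in excess. The simulated gaps left out the range around 150 kb. This checked the code alone and says nothing of sites near the threshold. A site's score was its highest in a list, its width the sum of its peaks. Starts are counted from 1. No test was run, because the rule chose the sites and each treatment has 1 undisputed list. Members and lists were chosen with earlier results of these data known. Sites named were the 10 with the highest lowest score, the 10 most distant, the 5 widest, the 5 weakest, the 5 largest rank changes each way, and 3 on each side of the threshold. The 1 run of adjacent members, the windows and the chromosomes singled out were chosen after their values were seen. Alternatives were other distances, scores, list lengths and overlaps, and leaving out each list. The reference gene tables are of another build, so positions in genes and sequences were not analysed here.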

Additional observations from a re-analysis of the deposited data

How the results depend on the processing

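No setting turned the direction of the results on score, width and rank. The mean percentile of member scores stayed under 50, the width ratio under 1 and the rank difference under 0 wherever they were computed. The number of isolated shared sites was 531 at a distance of 100 kb, 138 at 250 kb and 657 when only shared sites counted as neighbours. In the other settings it lay within 1.5 times 279. Of the 279 members, 229 remained with lists of equal length (35149 peaks each) and 242 with a score of at least 100. The share of isolated sites in every list was 58.4% at equal length and 59.6% to 66.9% when each distinct list was left out in turn, where presence in 2 lists was enough. The share of the other sites is not given for these settings, so the direction of that difference was not followed. The mean percentile of member scores was 42.9 at 100 kb, 44.6 at 250 kb, 44.2 with scores of at least 100, 44.9 at equal length and 37.1 to 38.0 without each list in turn. The width ratio was 0.8225 at 100 kb, 0.824 at equal length and 0.751 to 0.798 without each list in turn. The rank difference between the treated and vehicle lists was −2.79 at 100 kb, −2.285 with only shared sites as neighbours, −2.57 with scores of at least 100, −2.61 at equal length and −2.90 without the double-labelled list. It cannot be computed without the vehicle or the treated list. At 100 kb the share of members was 3.01% on chromosome 3 and 0.693% on chromosome 11, still the highest and lowest. Setting aside sites at the score ceiling in any list, an alternative chosen after seeing the data, gave a percentile of 37.25 and a rank difference of −3.84. The cause of these shifts was not tested. A wider distance leaves fewer sites by the rule, and a score of at least 100 removes both weak neighbours and weak members. No test was run, and no paired analysis was possible because the same list stands in both replicate pairs. Depth is unknown, so absence from a list is a lack of detection.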

Other observations

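Chromosome X was outside the rule. By the same distances, 38 of its 584 shared sites (6.51%) were isolated, against 0.892% of the shared autosomal sites. Among autosomes this share partly followed the density of sites, and the density on X is not given here. No test was run on this difference.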
